A study of Mus musculus with 8 samples.

Results

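The Cd300 genes encode receptors of the myeloid cell surface, and 9 of them were followed in RNA from the F4/80-enriched fraction of fat pads, labelled as macrophages, of mice that received Aldara cream or a control cream on the skin. They are Cd300ld, Cd300c2, Cd300lb, Cd300ld4, Cd300ld2, Cd300e, Cd300a, Cd300lf and Cd300lg. They were picked by gene symbol, with earlier results of the same comparison known, out of 12 Cd300 symbols found among the 56748 genes of the count table. Their difference between Aldara and Vehicle is therefore given as a description, and no test of the family is made from it. Aldara mice were wild-type (WT) females that received about 62.5 mg of Aldara, a cream whose active agent, 5% imiquimod, stimulates Toll-like receptor 7, on shaved back skin close to the tail on 3 days in a row. Vehicle mice were WT females treated in the same way with an equal volume of Boots Aqueous Cream/10% Vaseline Lanette Cream. The sources used here give neither age nor strain. Inguinal fat pads were taken 24 h after the last dose, cells were enriched with F4/80 beads, and preparations with over 90% F4/80+CD64+ cells by flow cytometry were used. Each library pooled 6 fat pads, about 30000 cells, and there were 4 libraries per group. Whether the pools of a group came from different mice is not stated in the labels, so the p-values refer to the spread among pools, which may be technical.

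CD300 receptors carry an immunoglobulin-like domain outside the cell, and several bind lipids such as phosphatidylserine, phosphatidylethanolamine and ceramide, some of which are exposed on dying cells. Activating members have short tails and signal through the adaptors DAP12 or the Fc receptor gamma chain to the kinase Syk. Inhibitory members carry tyrosine motifs in long tails that recruit the phosphatases SHP-1, SHP-2 and SHIP-1. Macrophages of fat take up lipid and the remains of dead cells and express receptors of this kind.

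Total counts ranged from 19537607 to 24340674 in Aldara libraries and from 21874780 to 34471508 in Vehicle libraries, so that 1 count was worth 0.0282 to 0.0532 CPM (counts relative to library size, scaled with TMM factors). Of 16780 genes tested with edgeR's quasi-likelihood test and Benjamini-Hochberg adjustment, 1171 (6.98%) were higher in Aldara at an adjusted p under 0.05, and 647 (3.86%) were lower. With replicate number as a block the higher genes numbered 1546 and the lower genes 1030. The labelled macrophage identity was checked with 20 macrophage genes, among them Csf1r, Spi1 and C1qa, named here the macrophage gauge. Its geometric mean was 141, 200, 347 and 343 CPM in Aldara libraries 1 to 4, against 61.2, 87.4, 114 and 88.2 CPM in Vehicle libraries 1 to 4. Every Aldara library stood above every Vehicle library, by 1.49 on the log2 scale on average, and 15 of the 20 genes were called higher, or all 20 with replicate number as a block. Markers of mammary luminal epithelium, such as Krt8 and Krt18, were summed to 13300 to 16900 CPM in Aldara and to 14900 to 19900 CPM in Vehicle. These sums exceeded the summed gauge, which was 4400 to 11100 CPM in Aldara and 2020 to 4040 CPM in Vehicle, so that the fraction held more RNA of these epithelial markers than of the macrophage genes in every library. In such bulk RNA, fewer cells of a type and less RNA per cell cannot be told apart, and CPM of a macrophage gene depends on the share of macrophage RNA in the library.

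In GENCODE M21, on build GRCm38, 11 of the 12 Cd300 genes lay side by side on chromosome 11 in a stretch of 244 kb, chr11:114890041-115133992. Cd300a stood at its left end on the plus strand, and the other 10 lay on the minus strand. Cd300lg lay 12.8 Mb away, at chr11:102041509-102055620 on the plus strand. No exon of a Cd300 gene overlapped an exon of another gene. RefSeq promoter sequences (build GRCm38.p6) were at hand for 10 of the 12 symbols and for 7 of the 9 members. The 110 bases before the outermost annotated start follow for 5 genes on the minus strand, 5′ to 3′. They show how alike the promoters of the Cd300ld copies are, beside the promoters of Cd300c2 and Cd300e. Cd300e, the member with the widest difference, was not set apart from other promoters by its likeness to the copies. Over the longer stretch searched below, the promoter of Cd300ld4 matched that of Cd300e at 50.5% of aligned bases. The promoter of Cd300ld4 matched that of Cd300c2 at 52.2%, of Cd300a at 49% and of Cd300lf at 46%. Capitals mark AGGAAGT, the core of a motif bound by the macrophage factor PU.1. The windows are chr11:114989923-114990032 for Cd300ld, chr11:115027071-115027180 for Cd300ld4, chr11:115048420-115048529 for Cd300ld3, chr11:115001881-115001990 for Cd300c2 and chr11:115062178-115062287 for Cd300e.
Cd300ld: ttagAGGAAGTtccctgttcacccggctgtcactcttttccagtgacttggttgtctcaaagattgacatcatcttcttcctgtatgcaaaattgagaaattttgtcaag
Cd300ld4: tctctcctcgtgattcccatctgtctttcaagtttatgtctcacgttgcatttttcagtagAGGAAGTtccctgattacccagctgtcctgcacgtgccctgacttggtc
Cd300ld3: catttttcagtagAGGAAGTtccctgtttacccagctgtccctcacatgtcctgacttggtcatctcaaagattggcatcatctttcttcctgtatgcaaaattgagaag
Cd300c2: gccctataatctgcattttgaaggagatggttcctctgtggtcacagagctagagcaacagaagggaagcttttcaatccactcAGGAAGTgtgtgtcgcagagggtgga
Cd300e: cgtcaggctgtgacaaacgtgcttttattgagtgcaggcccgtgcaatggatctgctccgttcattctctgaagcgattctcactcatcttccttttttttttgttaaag

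Over the 250 bases before each RefSeq start, searched on both strands, AGGAAGT occurred in 6 of the 10 Cd300 promoters, against 7.69% of all 32851 promoters in the table. The 6 were those of Cd300ld, Cd300c2, Cd300ld3, Cd300ld4, Cd300ld5 and Cd300e. The Cd300e match lies 137 to 131 bases before the RefSeq start, outside the window shown. It falls among the 138 bases between the outermost annotated start and the RefSeq start, and so downstream of the outermost start. An NF-kB-type motif, GGGANNTTC, occurred in the promoters of Cd300ld, Cd300ld3, Cd300ld4 and Cd300ld5 and in 3.23% of all promoters, and in these 4 genes it overlapped an AGGAAGT match. The promoters are not independent, since those of Cd300ld4 and Cd300ld5 were identical over 250 bases, that of Cd300ld3 matched them at 94.8% of aligned bases, and that of Cd300ld matched Cd300ld4 at 61.6%. The interferon response motif GAAANNGAA occurred in the promoters of Cd300c and Cd300lf (7.13% of all promoters), and the C/EBP motif TTNNGCAA in that of Cd300a (9.56%). TATAAA occurred in the promoters of Cd300lb and Cd300lf (12.4%), and the AP-1 motif TGANTCA in none of the 10 (6.75%). A match is a run of letters and not a shown binding site.

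All 9 members had a higher mean level in Aldara than in Vehicle. By edgeR's quasi-likelihood test with Benjamini-Hochberg adjustment 8 of the 9 members were called higher, beside 6.98% of all genes, and none was called lower, beside 3.86%. The exception was Cd300lf. Every Aldara library lay above every Vehicle library for 7 of the 9 members, beside 9.97% of all tested genes. The median log2 fold change was 1.87 over the members and 0.01 over all tested genes. These counts describe the same comparison with which the members were chosen. Levels below are CPM, with ± for the SD over n = 4 libraries per group, and each log2 fold change is Aldara minus Vehicle and has its standard error (SE).

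**Figure D1:**
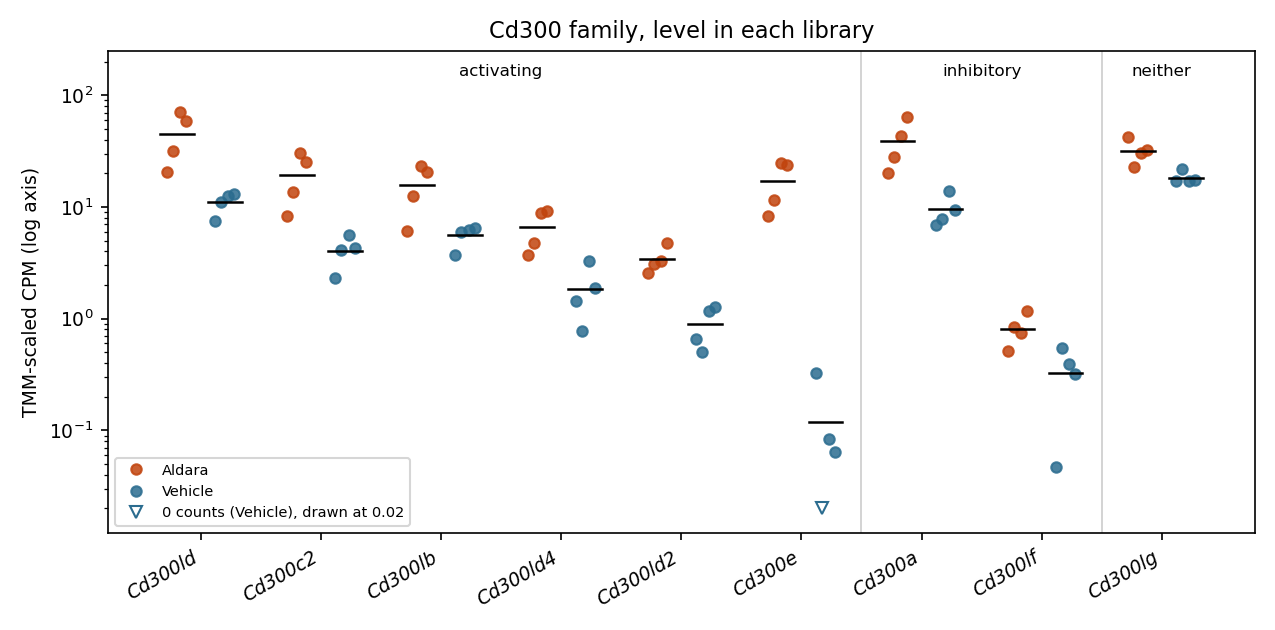
Level of each Cd300 gene in every library, as TMM-scaled CPM on a log axis. Points are libraries, Aldara left and Vehicle right, black lines are group means (n = 4 each), and the open triangle marks a Vehicle library with 0 counts of Cd300e. Points of the groups overlap for Cd300lb and Cd300lf only, and Cd300e is the member for which the groups lie farthest apart.

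Among activating members Cd300e (ENSMUSG00000048498) differed most. The human protein is a receptor of monocytes and macrophages that signals through DAP12. Cd300e had 8.27, 11.5, 24.8 and 23.7 CPM in Aldara libraries 1 to 4, against 0.328, 0, 0.0846 and 0.0641 CPM in Vehicle libraries 1 to 4. All Vehicle values came from few reads, 7, 0, 3 and 2, against 194, 289, 604 and 445 reads in the Aldara libraries. The mean was 17.1 ± 8.41 CPM in Aldara and 0.119 ± 0.144 CPM in Vehicle, a ratio of 143, and the log2 fold change was 7.21 (SE 0.64). Vehicle library 1 held 7 of the 12 Vehicle reads, and without it the ratio was 344 and the log2 fold change 8.13, the highest with a library left out, the lowest being 6.88 without Vehicle library 2.

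Cd300ld (ENSMUSG00000034641), a receptor that signals through the Fc receptor gamma chain, had 20.4, 32, 70.5 and 58.4 CPM in Aldara libraries, against 7.49, 11.1, 12.6 and 13 CPM in Vehicle libraries. The lowest Aldara library exceeded the highest Vehicle library, and Aldara libraries 3 and 4 stood above libraries 1 and 2. Its log2 fold change was 2.03 (SE 0.37), with means of 45.3 ± 23.1 CPM in Aldara and 11.1 ± 2.51 CPM in Vehicle. Cd300c2 (ENSMUSG00000044811), another activating receptor of myeloid cells, had 8.36, 13.7, 30.5 and 25.4 CPM in Aldara libraries, against 2.29, 4.11, 5.58 and 4.3 CPM in Vehicle libraries. Again the groups did not overlap, and libraries 3 and 4 were the highest in both. The log2 fold change of Cd300c2 was 2.24 (SE 0.42), with means of 19.5 ± 10.2 CPM in Aldara and 4.07 ± 1.35 CPM in Vehicle.

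Cd300lb (ENSMUSG00000063193), which signals through DAP12, had 6.05, 12.6, 23.1 and 20.7 CPM in Aldara libraries, against 3.7, 5.98, 6.26 and 6.54 CPM in Vehicle libraries. Aldara library 1 fell within the Vehicle range, and the other 3 lay above it. The log2 fold change of Cd300lb was 1.47 (SE 0.38), with means of 15.6 ± 7.81 CPM in Aldara and 5.62 ± 1.3 CPM in Vehicle. Its call by edgeR's quasi-likelihood test with Benjamini-Hochberg adjustment (adjusted p = 0.0411) was kept without Aldara library 1 and was lost without any other library, Aldara 2, 3 or 4 or Vehicle 1, 2, 3 or 4, with adjusted p up to 0.119.

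The genes Cd300ld2 to Cd300ld5 lie in a row beyond Cd300c2, the neighbour of Cd300ld, carry the name of Cd300ld and were set with the activating members on that ground alone. Cd300ld4 (ENSMUSG00000069609) had 3.75, 4.74, 8.88 and 9.2 CPM in Aldara libraries, against 1.45, 0.776, 3.3 and 1.89 CPM in Vehicle libraries. The groups did not overlap, though Aldara library 1 and Vehicle library 3 lay close together. The log2 fold change of Cd300ld4 was 1.80 (SE 0.43), and its call was lost without Aldara 3, Aldara 4, Vehicle 1, Vehicle 2 or Vehicle 4, with adjusted p up to 0.0813 by edgeR's quasi-likelihood test with Benjamini-Hochberg adjustment. Cd300ld2 (ENSMUSG00000089753) had 2.56, 3.06, 3.29 and 4.78 CPM in Aldara libraries, against 0.656, 0.502, 1.18 and 1.28 CPM in Vehicle libraries. Its groups did not overlap either, and its log2 fold change was 1.87 (SE 0.33).

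Reads of these copies can be split between them. Of all 50-base stretches of Cd300ld4, 93.8% also occurred in another gene, chiefly Cd300ld5 and Cd300ld3. The share was 100% for Cd300ld5, 82.1% for Cd300ld3 and 31% for Cd300ld2, and at most 7.16% for the other members. Levels of the copies one by one are therefore uncertain. Cd300ld3, outside the members, had 0.554, 0.119, 2.18 and 0.106 CPM in Aldara libraries, against 1.03, 0.228, 2.2 and 0.513 CPM in Vehicle libraries, and was not called (log2 fold change -0.43, SE 0.91, adjusted p = 0.818 by edgeR's quasi-likelihood test with Benjamini-Hochberg adjustment). Cd300ld5, too low to be tested, had 0.384, 1.95, 1.85 and 0.691 CPM in Aldara libraries, against 0.187, 0.183, 0.169 and 0.225 CPM in Vehicle libraries. Summed over Cd300ld3, Cd300ld4 and Cd300ld5, the level was 4.69, 6.8, 12.9 and 9.99 CPM in Aldara libraries, against 2.67, 1.19, 5.67 and 2.63 CPM in Vehicle libraries. Only Aldara library 1 lay within the Vehicle range of this sum, and the means were 8.6 ± 3.61 CPM in Aldara and 3.04 ± 1.88 CPM in Vehicle, a ratio of 2.83. The remaining symbol, Cd300c, had 1 read in all 8 libraries, in Vehicle library 2.

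Among inhibitory members, Cd300a (ENSMUSG00000034652), a receptor for phosphatidylserine and phosphatidylethanolamine, had 20, 27.9, 43.4 and 64.4 CPM in Aldara libraries, against 6.88, 7.85, 14 and 9.43 CPM in Vehicle libraries. The groups did not overlap. The log2 fold change of Cd300a was 2.01 (SE 0.37), with means of 38.9 ± 19.6 CPM in Aldara and 9.54 ± 3.16 CPM in Vehicle, a difference close in size to those of Cd300ld and Cd300c2. Cd300lf (ENSMUSG00000047798), an inhibitory receptor for ceramide and also the entry receptor of murine norovirus, was scarce, with 73 reads over the 4 Aldara libraries and 37 over the 4 Vehicle libraries. Its level was 0.512, 0.836, 0.74 and 1.17 CPM in Aldara libraries, against 0.0468, 0.548, 0.395 and 0.321 CPM in Vehicle libraries. Aldara library 1 lay within the Vehicle range. Cd300lf was not called (log2 fold change 1.27, SE 0.49, adjusted p = 0.126 by edgeR's quasi-likelihood test with Benjamini-Hochberg adjustment), and a difference was not detectable at this depth.

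Cd300lg (ENSMUSG00000017309), also called nepmucin, is an adhesion receptor of vascular endothelium and was counted on neither side. It had 42.3, 22.8, 30.6 and 32.1 CPM in Aldara libraries, against 17.2, 21.8, 17 and 17.3 CPM in Vehicle libraries. The groups did not overlap, but Aldara library 2 and Vehicle library 2 nearly met. The log2 fold change of Cd300lg was 0.80 (SE 0.17), with means of 32 ± 8 CPM in Aldara and 18.3 ± 2.31 CPM in Vehicle. Cd300lg was highest in Aldara library 1, which had the lowest macrophage gauge of its group, whereas all other members were lowest there. None of 12 endothelial markers was called in either direction, and their summed level was 360 to 700 CPM in Aldara and 420 to 655 CPM in Vehicle. Of 10 adipocyte markers 5 were called higher and none lower (1 lower, Lipe, with replicate number as a block). Among all genes 6.98% were called higher and 3.86% lower. The adipocyte markers summed to 351 to 533 CPM in Aldara and 310 to 354 CPM in Vehicle. Lpl, called higher, weighed most in the Aldara sum (197 ± 92.4 CPM in Aldara, 66.5 ± 8.32 CPM in Vehicle). Fabp4, not called, weighed most in the Vehicle sum (131 ± 40.3 CPM in Aldara, 155 ± 23.9 CPM in Vehicle). The others called higher were Adipoq, Cidec, Cfd and Car3, with Aldara means of 1.25, 2.83, 13.2 and 12.6 CPM. The part of either cell type in the level of Cd300lg was not tested.

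Activating and inhibitory members were both higher in Aldara, and the ratio between their sums overlapped between the groups. The 6 activating members summed to 108 ± 52.7 CPM in Aldara and 23.6 ± 5.83 CPM in Vehicle. The 2 inhibitory members, nearly all of it Cd300a, summed to 39.7 ± 19.8 CPM in Aldara and 9.87 ± 3.24 CPM in Vehicle. The ratio of the sums was 2.41, 2.7, 3.65 and 2.17 in Aldara libraries, against 2.3, 2.67, 2.02 and 2.78 in Vehicle libraries. The values overlapped, and the means were 2.73 ± 0.648 in Aldara and 2.44 ± 0.35 in Vehicle. Without Cd300e the ratio was 2.3 ± 0.562 in Aldara and 2.43 ± 0.358 in Vehicle. These ratios are of read counts, in which long transcripts weigh more.

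Per kilobase of exon, Cd300ld led the family in Aldara with 17.1 ± 8.73 CPM per kb, followed by Cd300c2 (15.3 ± 8), Cd300lg (11.7 ± 2.92), Cd300a (8.21 ± 4.13), Cd300e (8.17 ± 4.03), Cd300ld4 (7.79 ± 3.29), Cd300lb (5.36 ± 2.68), Cd300ld2 (3.73 ± 1.04) and Cd300lf (0.158 ± 0.053 CPM per kb). In this order neighbours differed beyond their mean ± SD only at Cd300ld2 and Cd300lf. In Vehicle Cd300lg led with 6.69 ± 0.844 CPM per kb, followed by Cd300ld (4.18 ± 0.95), Cd300c2 (3.19 ± 1.06), Cd300ld4 (2.18 ± 1.25), Cd300a (2.01 ± 0.667), Cd300lb (1.93 ± 0.446), Cd300ld2 (0.987 ± 0.42), Cd300lf (0.0636 ± 0.0407) and Cd300e (0.0571 ± 0.0688 CPM per kb). Here Cd300lg and Cd300ld, Cd300lb and Cd300ld2, and Cd300ld2 and Cd300lf differed beyond that spread, and the other neighbours did not. Cd300e thus stood at rank 5 in Aldara and at rank 9 in Vehicle. Its share of the summed level per kb was 10.2% ± 1.36 in Aldara and 0.315% ± 0.44 in Vehicle. The share of Cd300lg was 17.4% ± 10.3 in Aldara and 32.3% ± 7.46 in Vehicle.

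**Figure D2:**
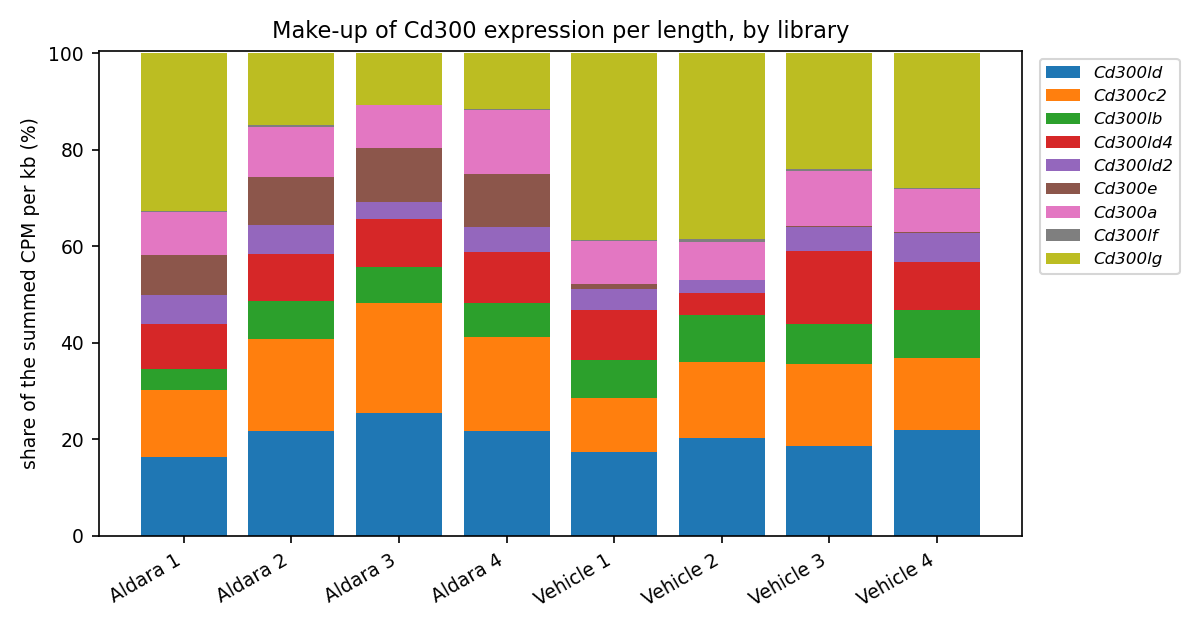
Share of each Cd300 member in the members' summed CPM per kb of exon, in percent, for each of the 4 Aldara and 4 Vehicle libraries. Cd300e (brown) holds 8.38% to 11.3% in the Aldara libraries and at most 0.967% in a Vehicle library, while Cd300lg holds 32.7% in Aldara library 1 and 10.7% to 14.9% in the other Aldara libraries.

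The order of the libraries was compared with that of the macrophage gauge. In both groups the gauge ran from library 3, the highest, through 4 and 2 to library 1, the lowest, and Cd300c2 had that order in both groups. Cd300e, Cd300lb and Cd300ld had it in Aldara and Cd300a in Vehicle, and the other 4 members had it in neither. Given as a percent of the gauge, the members varied less within Aldara than in CPM, apart from Cd300ld2 and Cd300lg. The highest Aldara library exceeded the lowest 3-fold for Cd300e in CPM and 1.24-fold as a percent of the gauge, and 2.45-fold and 1.13-fold for Cd300ld4. For Cd300lg the range widened from 1.85-fold in CPM to 3.39-fold as a percent of the gauge.

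As a percent of the gauge, 3 members did not overlap between the groups, beside 0.697% of all tested genes with every Aldara library above every Vehicle library on that scale. Cd300e stood at 5.85, 5.76, 7.16 and 6.9% of the gauge in Aldara libraries, against 0.536, 0, 0.0739 and 0.0727% in Vehicle libraries. Cd300c2 was at 7.24 ± 1.2% in Aldara and 4.55 ± 0.54% in Vehicle, and Cd300a at 14.9 ± 2.72% in Aldara and 10.8 ± 1.37% in Vehicle. For Cd300a the groups nearly met, with Aldara library 3 at 12.5% and Vehicle library 3 at 12.2%. The other 6 overlapped: Cd300ld was at 17 ± 2.49% in Aldara and 12.7 ± 1.54% in Vehicle, Cd300lb at 5.83 ± 1.07% in Aldara and 6.44 ± 0.859% in Vehicle, and Cd300lf at 0.334 ± 0.0867% in Aldara and 0.353 ± 0.225% in Vehicle. Cd300lg was at 14.9 ± 10.1% in Aldara and 21.9 ± 5.88% in Vehicle.

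**Figure D3:**
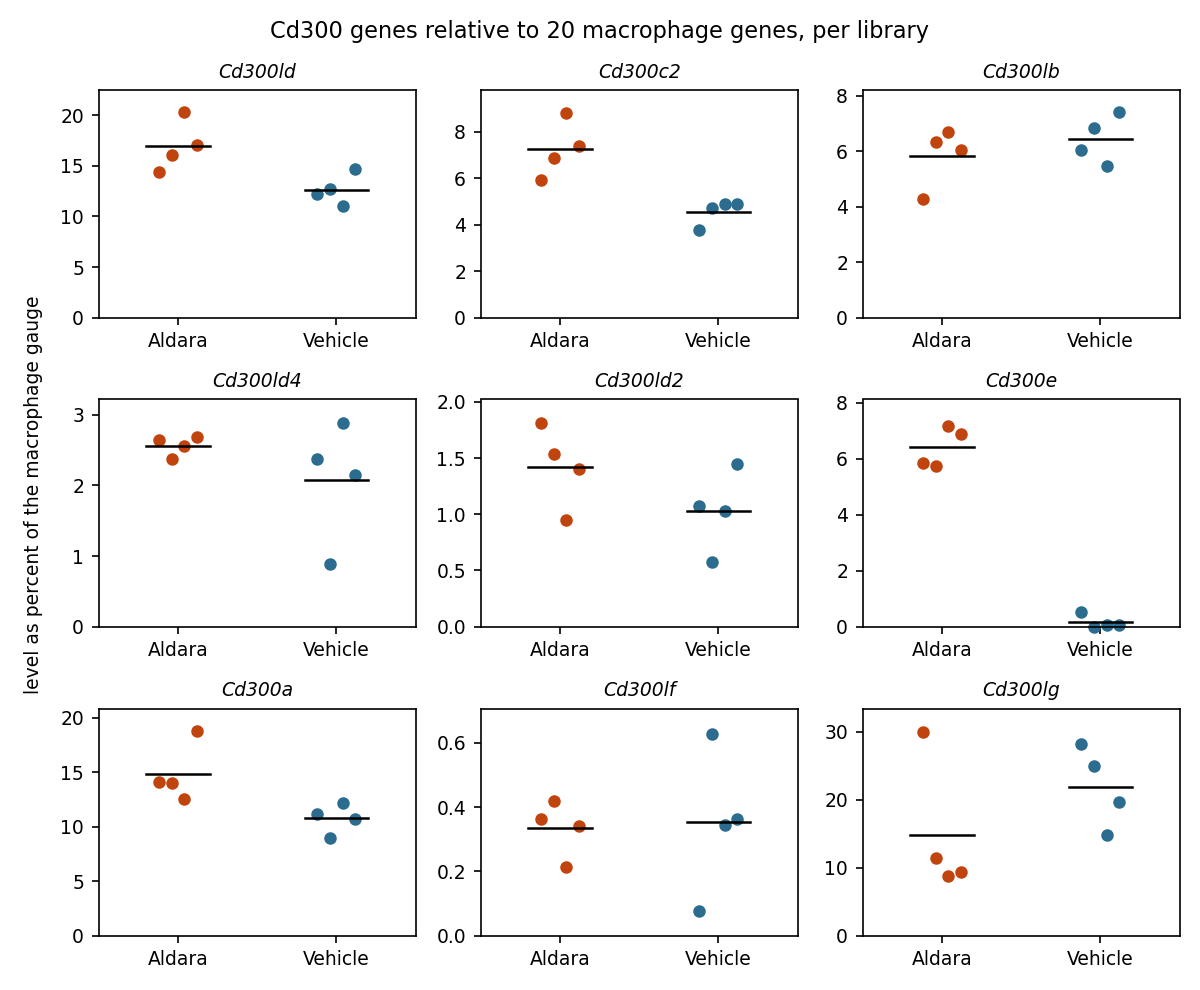
Level of each Cd300 gene as a percent of the geometric mean of 20 macrophage genes, per library, with a linear axis from 0 in each panel. Points are libraries (Aldara left, Vehicle right) and lines are means. Groups do not overlap for Cd300e, Cd300c2 and Cd300a and overlap for the other 6 members.

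When libraries were scaled to the summed counts of the gauge in place of TMM factors, 79 of all tested genes were called higher (0.471%) and 13976 lower (83.3%), and the median log2 fold change of all genes moved by -1.30. On this scale 1 of the 9 members, Cd300e, was called higher and none lower. Its log2 fold change was 5.67 (SE 0.63). The other members lay between -0.44 for Cd300lg and 0.79 for Cd300c2, with 0.59 for Cd300a, 0.54 for Cd300ld and -0.02 for Cd300lb. Relative to the gauge Cd300lb (SE 0.45) lay within its SE of 0, and Cd300lg (SE 0.42) was below 0 without being called. The median of the members was 0.54.

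**Figure D4:**
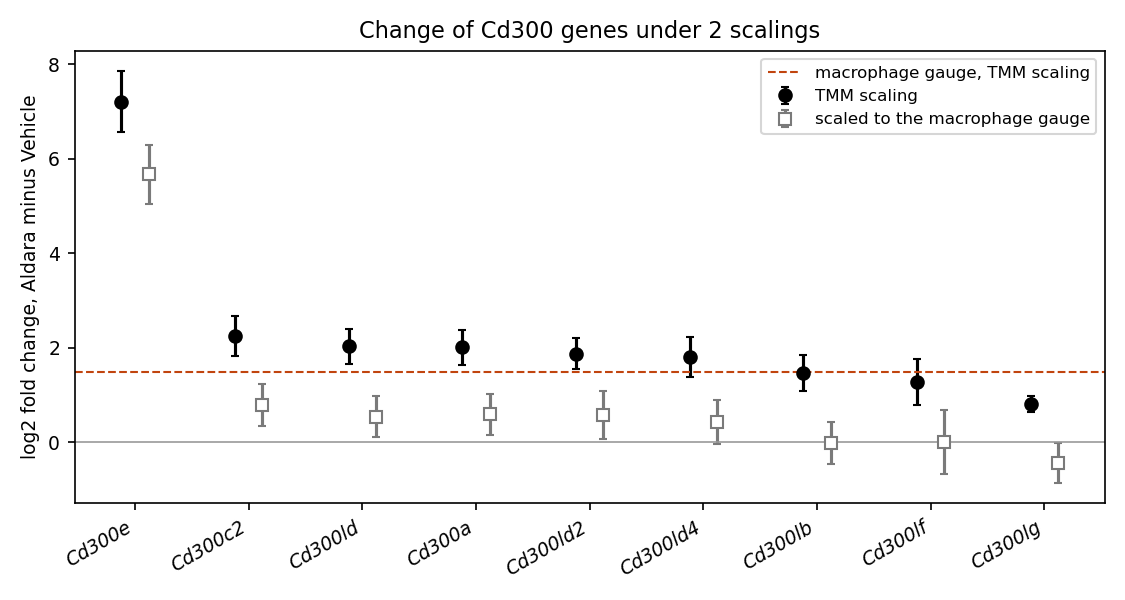
Log2 fold change of each Cd300 gene, Aldara minus Vehicle, with TMM scaling (filled circles) and with libraries scaled to the macrophage gauge (open squares), bars showing SE. The dashed line is the log2 difference of the gauge itself, 1.49. Cd300e stands at 7.21 and 5.67, and the other members lie between 0.80 and 2.24 with TMM scaling and between -0.44 and 0.79 when scaled to the gauge.

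Markers of other cells were read in the same libraries, in which 6.98% of all genes were called higher and 3.86% lower. Of 10 neutrophil markers 8 were under 1 CPM in every library, among them S100a8 and S100a9, and Ly6g was at 0. The neutrophil list summed to 61 to 161 CPM in Aldara and 29.9 to 51.2 CPM in Vehicle, and its 2 tested genes, Csf3r and Mmp9, were called higher, Mmp9 not without Aldara 3, Aldara 4, Vehicle 1 or Vehicle 2. Of the monocyte list 8 of 10 were tested, with 3 called higher (Chil3, Itgal and Spn) and 1 lower (Plac8), and Ly6c2 and Ccr2 were not called. The log2 fold change was 5.43 for Itgal, 3.29 for Spn, 2.88 for Chil3 and -1.05 for Plac8. This list summed to 905 to 1350 CPM in Aldara and 832 to 1070 CPM in Vehicle. Most of that sum was Nr4a1, which was not called (784 ± 120 CPM in Aldara, 711 ± 81.7 CPM in Vehicle), so the sum says little of the other genes. Of 10 B cell markers 4 were tested and called higher (Cd79b, Cd22, Bank1 and Ighm), with Cd79a and Ms4a1 under 1 CPM in every library. The B cell list summed to 72 to 172 CPM in Aldara and 30.1 to 50.9 CPM in Vehicle, and the call of Bank1 held only without Aldara 1 or Aldara 2 among the fits that left out a library. Of the dendritic cell list 8 of 10 were tested, with none called higher and 2 lower (Cd209a and Siglech), and the sum was 68.7 to 95.9 CPM in Aldara and 82.8 to 111 CPM in Vehicle. Of 10 fibroblast markers none was called higher and 6 were called lower, among them Col1a1 and Col3a1 (9 lower with replicate number as a block), and the sum was 108 to 191 CPM in Aldara and 267 to 650 CPM in Vehicle. Of the mast cell list 1 of 3 tested genes was called higher (Hdc), and Ms4a2 was at 0. None of the 2 tested T and NK cell genes and none of 10 basal epithelial markers was called, though 1 of each was with replicate number as a block (Gzma higher and Trp63 lower). Of 10 luminal epithelial markers none was called higher and 1 lower, or 1 higher and 3 lower with the block. The part of these cells in the Cd300 levels was not tested.

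Likeness of pattern was measured as the root mean square (RMS) difference of mean-centred log2 CPM over the 8 libraries. Among the members, Cd300c2 and Cd300ld were closest, with 0.18, and Cd300e lay 2.37 to 3.02 from the rest. Over all tested genes, predicted gene models left out, those closest to Cd300a were Cd200r1 (0.14), C3ar1 (0.15) and Syk (0.17), and those closest to Cd300c2 were Csf3r (0.12), Ly86 (0.12) and Ccdc88b (0.15). Ccdc88b (0.11), Ly86 (0.13) and Fermt3 (0.13) were closest to Cd300ld, and Myo1f (0.13), Adcy7 (0.13) and Camk1d (0.14) to Cd300lb. Cd300e had no such close neighbour, the nearest being Fpr1 (0.75), Slc13a3 (0.80) and Fcrl5 (0.88). The copies Cd300ld2 and Cd300ld4 both had Fndc7 as the nearest gene (0.27 for Cd300ld2 and 0.23 for Cd300ld4). Arhgap15 (0.31) and Epor (0.33) came next for Cd300ld2, and Bcl2a1a (0.26) and Arhgap15 (0.27) were the next named genes for Cd300ld4. Prkag2os1 (0.19), Trim5 (0.20) and Kbtbd11 (0.30) were nearest to the scarce Cd300lf. Cd300lg was nearest to the interferon-induced GTPases Gbp4 (0.17) and Gbp2 (0.17) and to the adipocyte hormone Adipoq (0.18).

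In CPM, most of the adaptors and kinases that activating receptors of this family use were higher in Aldara. Here edgeR adjusted p stands for the quasi-likelihood test with Benjamini-Hochberg adjustment over all genes. Of 20 adaptors and kinases, all tested, 14 were called higher and none lower, beside 6.98% and 3.86% of all genes, and their median log2 fold change was 1.29, against 0.01 over all genes. Fcer1g, the Fc receptor gamma chain, had 97.1, 157, 342 and 279 CPM in Aldara libraries, against 32.8, 41.3, 56.9 and 40.6 CPM in Vehicle libraries. Its groups did not overlap, and it rose by a log2 fold change of 2.35 (SE 0.37, adjusted p = 0.00638 by edgeR's quasi-likelihood test with Benjamini-Hochberg adjustment). Tyrobp, which encodes DAP12, had 51.6, 80.6, 161 and 138 CPM in Aldara libraries, against 18.7, 26.7, 50.3 and 28.5 CPM in Vehicle libraries. Aldara library 1 lay just above Vehicle library 3. Tyrobp rose by a log2 fold change of 1.79 (SE 0.40, adjusted p = 0.0221 in the same test), a call lost without Aldara 3, Aldara 4, Vehicle 1, Vehicle 2 or Vehicle 4, with adjusted p up to 0.0803.

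Syk, the kinase that both adaptors engage, averaged 144 ± 59 CPM in Aldara and 38.2 ± 9.08 CPM in Vehicle, and rose by 1.91 on the log2 scale (SE 0.31, edgeR adjusted p = 0.00666). Lyn, a Src-family kinase, averaged 188 ± 74.8 CPM in Aldara and 59.5 ± 2.46 CPM in Vehicle, and rose by 1.66 (SE 0.26, edgeR adjusted p = 0.00591), and Pik3cg, a catalytic subunit of phosphoinositide 3-kinase, by 0.88 (SE 0.15, edgeR adjusted p = 0.00616). Hcst, which encodes the adaptor DAP10, averaged 2.08 ± 0.769 CPM in Aldara and 0.939 ± 0.467 CPM in Vehicle and was not called (edgeR adjusted p = 0.0957), but was called with replicate number as a block (adjusted p = 0.0154). Scaled to the gauge, 2 of the 20 were called higher and 4 lower, beside 0.471% and 83.3% of all genes. The median log2 fold change of the list was -0.09 on that scale. None of the genes named here was called on it, with 0.86 for Fcer1g, 0.38 for Tyrobp, 0.48 for Syk, 0.18 for Lyn, -0.49 for Pik3cg and -0.22 for Hcst.

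Of 10 phosphatases and adaptors of inhibitory receptors, 5 were called higher and 1 lower, beside 6.98% and 3.86% of all genes. Their median log2 fold change was 0.51, against 0.01 over all genes. Ptpn6, which encodes SHP-1, averaged 115 ± 42 CPM in Aldara and 46.8 ± 2.82 CPM in Vehicle, and rose by 1.30 on the log2 scale (SE 0.23, edgeR adjusted p = 0.0102). Inpp5d, which encodes SHIP-1, averaged 89.3 ± 37.8 CPM in Aldara and 29.8 ± 5.25 CPM in Vehicle, and rose by 1.58 (SE 0.30, edgeR adjusted p = 0.0115). Ptpn11, which encodes SHP-2, averaged 157 ± 14.2 CPM in Aldara and 144 ± 11.6 CPM in Vehicle and was not called (log2 fold change 0.13, SE 0.10, edgeR adjusted p = 0.453). The adaptor Dok3 rose by 1.84 (SE 0.31, edgeR adjusted p = 0.00829). Its relative Dok2 rose by 1.26 (SE 0.32, edgeR adjusted p = 0.0384), a call that held without Aldara 1 and was lost without any other library, with adjusted p up to 0.117. Inppl1, which encodes SHIP-2, averaged 249 ± 15.5 CPM in Aldara and 448 ± 135 CPM in Vehicle, and fell by 0.85 (SE 0.19, edgeR adjusted p = 0.0193), a call lost without Aldara 3 or Vehicle 2, with adjusted p up to 0.0662. Scaled to the gauge, none of the 10 was called higher and 5 were called lower, beside 0.471% and 83.3% of all genes.

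Genes that make or expose the lipids bound by CD300 receptors differed less. Of 25 genes of ceramide and phosphatidylserine metabolism 2 were called higher and none lower, a share near that of all genes, and their median log2 fold change was 0.07. One of them was Asah1, an acid ceramidase (177 ± 43.2 CPM in Aldara, 117 ± 8.07 CPM in Vehicle, log2 fold change 0.59, SE 0.16, edgeR adjusted p = 0.0366). The call of Asah1 was lost without any library except Aldara 1 (adjusted p up to 0.117). The ceramide desaturase gene Degs1 had an edgeR adjusted p of 0.0531, and of 0.0307 with replicate number as a block. Pisd (adjusted p = 0.0865) and Xkr8 (adjusted p = 0.0941) followed in the same edgeR fit and were not called. Scaled to the gauge, none of the 25 was called higher and 22 were called lower, a share near the 83.3% of all genes called lower on that scale.

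Of 19 other receptors and bridging proteins for lipids and dying cells 17 were tested. Of these 3 were called higher and 1 lower, beside 6.98% and 3.86% of all genes. With replicate number as a block 6 were called higher. Trem2, a lipid receptor that also signals through DAP12, was lower in Aldara. Trem2 had 0.981, 1.07, 1.56 and 1.22 CPM in Aldara libraries, against 5.48, 9.54, 10.5 and 10.1 CPM in Vehicle libraries. The groups did not overlap, and Trem2 fell by 2.88 on the log2 scale (SE 0.25, adjusted p = 0.000794 by edgeR's quasi-likelihood test with Benjamini-Hochberg adjustment). The scavenger receptor Cd36 rose by 0.83 (SE 0.15, edgeR adjusted p = 0.00716), the lipoprotein receptor Lrp1 by 0.93 (SE 0.18, edgeR adjusted p = 0.00981) and Pros1, a bridging protein of Mertk, by 0.65 (SE 0.13, edgeR adjusted p = 0.00918). Mertk itself, a receptor for dying cells and 1 of the gauge genes, was not called (log2 fold change 1.14, SE 0.32, edgeR adjusted p = 0.0515), but was called with replicate number as a block (adjusted p = 0.000892). Scaled to the gauge, none of the 17 was called higher and 10 were called lower, beside 0.471% and 83.3% of all genes.

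Other paired receptors of myeloid cells were set beside the family. Of 15 inhibitory ones 10 were called higher and none lower, with a median log2 fold change of 1.94. Over all genes 6.98% were called higher and 3.86% lower, and the median was 0.01. Siglece, an inhibitory receptor for sialic acid, had 25.5, 39.4, 83.2 and 86.3 CPM in Aldara libraries, against 1.59, 3.65, 3.61 and 2.34 CPM in Vehicle libraries. It rose by 4.37 (SE 0.46, edgeR adjusted p = 0.00166), and the lowest Aldara library was far above every Vehicle library. Clec4a2, a lectin-like inhibitory receptor, rose by 3.24 (SE 0.42, edgeR adjusted p = 0.00328), Cd22 by 3.08 (SE 0.39, edgeR adjusted p = 0.00181), Pirb by 2.26 (SE 0.31, edgeR adjusted p = 0.00417) and Cd200r1 by 2.12 (SE 0.33, edgeR adjusted p = 0.00627). Of 19 activating ones 17 were tested, with 10 called higher and 3 lower, Trem2 among the lower ones, and the median log2 fold change was 1.34. Sirpb1a averaged 7.12 ± 3.64 CPM in Aldara and 0.131 ± 0.0683 CPM in Vehicle and rose by 5.74 (SE 0.52, edgeR adjusted p = 0.000794). The Fc receptor Fcgr4 rose by 3.64 (SE 0.42, edgeR adjusted p = 0.00227), Sirpb1c by 3.68 (SE 0.53, edgeR adjusted p = 0.00313) and Pilrb1 by 1.71 (SE 0.32, edgeR adjusted p = 0.00782). Scaled to the gauge, 3 of the 15 inhibitory receptors were called higher and 2 lower, and 4 of the 17 activating ones higher and 6 lower. Of all genes 0.471% were called higher and 83.3% lower on that scale. Pirb, Cd200r1 and Pilrb1 were not called on it.

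Of 10 genes reported to act with CD300 receptors, such as the lipopolysaccharide receptor genes that CD300LB is known to join, 9 were tested. Of these 4 were called higher and none lower, beside 6.98% and 3.86% of all genes. Cd14 averaged 603 ± 108 CPM in Aldara and 375 ± 15.1 CPM in Vehicle, and rose by 0.69 (SE 0.13, edgeR adjusted p = 0.00738). The DNA sensor Tlr9 averaged 40 ± 18.8 CPM in Aldara and 9.31 ± 2.03 CPM in Vehicle, and rose by 2.09 (SE 0.35, edgeR adjusted p = 0.00767). Tlr4 rose by 0.62 (SE 0.14, edgeR adjusted p = 0.0183), a call lost without Aldara 2 or Vehicle 2 (adjusted p up to 0.0534). The adaptor Ticam1 rose by 0.49 (SE 0.14, edgeR adjusted p = 0.0458), a call lost without any library except Aldara 1 (adjusted p up to 0.135). Ly96, which encodes the Tlr4 co-receptor MD-2, had an edgeR adjusted p of 0.0574, and of 0.0127 with replicate number as a block. Scaled to the gauge, none of the 9 was called higher and 5 were called lower, beside 0.471% and 83.3% of all genes. Ticam1 was among those called lower (log2 fold change -0.86, edgeR adjusted p = 0.0488). Cd14 (-0.67), Tlr4 (-0.75) and Ly96 (-0.57) were below 0 and Tlr9 (0.63) above it on that scale, and none of these was called.

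Of 11 genes inside or beside the cluster without a Cd300 symbol 8 were tested, with 2 called higher and 1 lower. Among all genes 6.98% were called higher and 3.86% lower. Gprc5c, the nearest to the left, averaged 83.1 ± 10.2 CPM in Aldara and 74.4 ± 8.58 CPM in Vehicle (log2 fold change 0.16, SE 0.11, edgeR adjusted p = 0.411). Slc9a3r1, the nearest to the right, averaged 175 ± 4.78 CPM in Aldara and 192 ± 11.1 CPM in Vehicle (log2 fold change -0.13, SE 0.08, edgeR adjusted p = 0.343). Rab37, which spans the right end of the cluster, had 1.11, 0.836, 1.44 and 0.478 CPM in Aldara libraries, against 13.5, 4.52, 3.22 and 1.7 CPM in Vehicle libraries. Every Aldara library was below every Vehicle library, with Vehicle library 1 far above the other Vehicle libraries. Rab37 fell by 2.53 (SE 0.65, edgeR adjusted p = 0.0375), a call lost without any 1 Aldara library or without Vehicle 2 (adjusted p up to 0.111), and its log2 fold change was -1.67 without Vehicle 1. Tmem104 rose by 0.62 (SE 0.15, edgeR adjusted p = 0.0243), a call lost without Aldara 3, Aldara 4, Vehicle 2, Vehicle 3 or Vehicle 4 (adjusted p up to 0.0856). Kif19a rose by 0.85 (SE 0.24, edgeR adjusted p = 0.0429), a call lost without any library except Vehicle 4 (adjusted p up to 0.116). Btbd17, Nat9 and Fdxr were not called, and Dnaic2, Gpr142 and Grin2c were too low to be tested.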

How the data were processed

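RNA of 8 libraries was amplified with a SMARTer ultra-low-input kit, which does not mark strand, and sequenced. The authors deposited whole-number read counts per gene, not normalised. HISAT2 2.0.5, featureCounts 1.5.0-p3, DESeq2 (no version) and mm10 are named per the submitters' processing notes, whose counting options the sources used here leave out. GENCODE M21 gave a symbol for 52073 of 56748 identifiers (91.8%). The count table gives no coordinates, and some of its identifiers are more recent than M21, so positions are those of M21 and RefSeq. Counts were fitted with edgeR 4.0.16 in R 4.3.3: filterByExpr (minimum count 10), TMM factors (0.957 to 1.035), the robust quasi-likelihood test and Benjamini-Hochberg adjustment over 16780 genes at 0.05. SE came from the F statistic. The fit was tested on simulated data. The members and all gene lists were chosen with earlier results of these data known. Named were all Cd300 genes, up to 5 genes per list with the smallest p, 7 fixed signalling genes, the genes beside the cluster and the 3 genes most alike to each member. Prior count for log2 CPM was 2. Deviations from the group means correlated at 0.228, 0.108, 0.167 and 0.218 between Aldara and Vehicle libraries of the same number. Between libraries of different numbers the correlation was at most 0.0819. The labels do not say what the numbers mark, and whether they pair the libraries is not known. The main fit therefore left the numbers out, and the replicate block was an alternative. No 2 libraries were duplicates (chi-square per degree of freedom at least 20.2). Counting error is the only error that depth describes, since amplified reads are not independent molecules. Alternatives were upper-quartile and DESeq2 size factors, DESeq2 1.42.0, limma 3.58.1 voom, 2 other filters, the replicate block, scaling to the gauge and leaving out each library. The gauge scaling of the partner lists and of the counts over all genes was chosen after seeing the data. Protein sequences were not used here, and a few genes of the lists are counted but not reported by name.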

Additional observations from a re-analysis of the deposited data

Results flagged for a closer look

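In the 4 Vehicle libraries, Cd300lg was highest in library 2, at 21.8 CPM, while the other 3 lay at 17.2, 17 and 17.3 CPM. The gap to the nearest library was 0.94 of the range of the group, past Dixon's 95% critical value for 4 samples. In all, 38 groups were examined in this way and 1 was set apart, and chance sets apart about 1 in 20 groups.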

How the results depend on the processing

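The count of Cd300 members called higher, 8 with TMM and edgeR, was 3 when every gene with at least 1 count was tested and 1 with gauge scaling. With gauge scaling the estimates of Cd300lb (-0.02, SE 0.45) and Cd300lg (-0.44, SE 0.42) were below 0, and neither was called. Over all genes, gauge scaling gave 79 higher and 13976 lower, and the lower genes numbered 990 with upper-quartile factors and 1198 with the DESeq2 Wald test. With gauge scaling the lists had 2 higher and 4 lower (adaptors and kinases), 0 and 5 (phosphatases), 0 and 22 (ceramide and phosphatidylserine), 0 and 10 (other lipid receptors), 3 and 2 (inhibitory paired receptors), 4 and 6 (activating paired receptors) and 0 and 5 (reported partners), and 22 of 45 other named genes changed sign. Phosphatases called higher numbered 3 with voom and 3 with genes of at least 1 count, ceramide genes 1 with voom, other lipid receptors 5 with the DESeq2 Wald test and 2 lower with upper-quartile factors, and inhibitory paired receptors 1 lower with the DESeq2 Wald test. The log2 difference of the activating over inhibitory ratio was -0.25 with Cd300lg set on the activating side. The cause of these changes was not tested.

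With replicate number as a block the members called higher stayed at 8, while 1546 of all genes were called higher and 1030 lower. Other lipid receptors had 6 higher and inhibitory paired receptors 1 lower. Of the partner genes and genes beside the cluster named in the text the replicate block changed the call of Hcst, Degs1, Mertk and Ly96 and of no other, and it changed no call of a member. Among the markers it changed the calls of Cd68, Csf1r, Cd163, Mrc1 and Mertk in the gauge, of Lipe, Gzma and Trp63, of Pi16, Fbn1 and Mfap5 and of Krt19, Cldn4 and Prlr.

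Leaving out 1 library at a time gave 6 to 8 members higher and 0 lower, 629 to 1405 genes higher (fewest without Aldara 4, and 658 without Aldara 3, 703 without Vehicle 1 and 699 without Vehicle 2) and 323 to 664 lower (fewest without Aldara 3, and 354 without Aldara 2, 415 without Vehicle 1 and 412 without Vehicle 2). The higher counts were 11 to 16 for adaptors and kinases, 3 to 7 for phosphatases (3 without any library but Aldara 1 or 2, with 0 to 1 lower, 0 without Aldara 3 or Vehicle 2), 0 to 4 for ceramide genes (2 in the full set; 4 without Aldara 1, 1 without Vehicle 3 or 4, 0 without any other), 3 to 5 for other lipid receptors (5 without Aldara 1, with 1 lower), 8 to 10 for inhibitory paired receptors, 5 to 10 for activating ones (6 without Aldara 3, Aldara 4, Vehicle 1 or Vehicle 2 and 5 without Vehicle 4, with 2 to 3 lower) and 2 to 5 for reported partners (2 without Aldara 2 or Vehicle 2). The activating over inhibitory difference ran from -0.0 to 0.25. At the depth of these libraries Cd300lf, Cd300ld5 and Vehicle Cd300e rest on few reads.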
